A study of Mus musculus with 8 samples.

Results

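The 42 genes described here are the transcription factor genes *Myc* and *Mycn* and 40 genes whose products make ribosomes in the nucleolus, taken from the 23427 genes of the deposited expression table by their symbols. The symbols were chosen by function, at a time when earlier results of these data were known, and all 42 were found and passed the filter on low values (1 FPKM or more in 2 libraries or more), as did 12208 genes in all. FPKM divides a gene's fragments by the length of its transcript and by the size of the library, which puts genes and libraries on a common scale. A shift between the libraries was left on that scale, and the number of calls below depended on further scaling. The 40 ribosome genes fall into 6 roles, namely RNA polymerase I and its factors (5 genes), box C/D ribonucleoproteins (3), box H/ACA ribonucleoproteins (4), abundant nucleolar proteins (6), small subunit assembly (12) and large subunit assembly (10).

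The samples were cultures of wild-type primary oligodendrocyte precursor cells (OPCs) of C57BL/6J mice, the proliferating cells that mature into the myelin-forming oligodendrocytes (OLs). Cells from the pooled cortices of pups at postnatal day 7 had been captured with an antibody to PDGFRα. The days are numbered from the switch to a medium with thyroid hormone (T3) and without growth factors. Each of the 4 days had 2 libraries, described in the paper as independent experiments, so that 8 libraries entered every comparison. No culture was kept in growth factors beside the later days, so time in culture, the change of medium and maturation cannot be told apart. The labels and the study's methods describe the medium differently. The depth, read from the steps between low values, was between 950000 and 1520000 fragments per library.

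Ribosome assembly begins when RNA polymerase I copies the ribosomal RNA genes in the nucleolus. Small nucleolar ribonucleoproteins then modify the transcript, and assembly factors fold and cleave it with ribosomal proteins into the small and the large subunit. Myc, a DNA-binding protein that pairs with Max at the sequence CACGTG, is known to activate many of these genes in growing cells, and OPCs leave the cell cycle as they mature.

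From Day 0 to Day 3 the markers of OPCs went down and those of OLs went up. All 5 OPC markers were lower on Day 3 than on Day 0 and all 8 OL markers were higher at an adjusted p under 0.05 (limma). Of all genes tested, 26.3% were lower and 12.0% higher. With median ratio scaling *Lhfpl3* (limma adjusted p = 0.104) and *Gpr17* (limma adjusted p = 0.0983) were not called. This left 3 of 5 OPC markers lower, beside 16.8% of all genes. Before rescaling, *Gpr17* was higher on Day 1 than on Day 0 (log2 fold change 0.82, limma adjusted p = 0.0401). The summed FPKM of the OPC markers was 1167 and 1233 at Day 0, 907 and 848 at Day 1, 630 and 486 at Day 2, then 389 and 229 at Day 3 (replicate 1, then replicate 2, here and below). The most abundant of them on Day 0 was *Pdgfra*, at 490 and 396 FPKM, and it was at 29.2 and 6.53 on Day 3. The OL markers summed to 1779 and 1309 at Day 0, 3912 and 4379 at Day 1, 12319 and 16742 at Day 2, then 21943 and 29682 at Day 3, when *Mbp* was the most abundant. In these bulk libraries, fewer cells of a type and less RNA per cell cannot be told apart, and this holds for each change below.

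Markers of other cell types were at different levels, and those of microglia, endothelial and mural cells were near 0. The 7 astrocyte markers summed to 120 and 354 FPKM at Day 0, 167 and 522 at Day 1, 131 and 641 at Day 2, then 148 and 952 at Day 3. Replicate 2 was the higher one on each day. From Day 0 to Day 3, 0 of the 7 were called, but 2 were called higher with the replicate number as a block (limma). With the replicate number as a factor, 5 of the 7 astrocyte markers were called higher in replicate 2 (limma, adjusted p under 0.05), as was 1 of 8 OL markers. Lower in replicate 2 were 1 of 5 OPC markers and 1 of 3 neuron markers. *Gfap* was the most abundant of the 7 astrocyte markers in the last library, at 603 FPKM against 45.5 in the other Day 3 library. Of the 42 members, 0 differed between the replicate numbers in that fit (limma), where 0.680% of all genes were higher and 0.369% lower in replicate 2, with a median difference of -0.10 on the log2 scale beside -0.05 for all genes tested. The part of these cells in the results below was not tested. The 5 neuron markers summed to 64.4 and 31.4 FPKM at Day 0, 79.7 and 40.2 at Day 1, 131 and 59.985 at Day 2, then 233 and 115 at Day 3. This sum went up from day to day within each replicate number and consisted mainly of *Tubb3*. Of the 3 tested neuron markers, *Tubb3* was called higher on Day 3 than on Day 0 (limma), while the change of 2 was negative, down to -1.79. With the replicate number as a block, 1 was called lower and 1 higher (limma). *Rbfox3* and *Stmn2* were at or under 0.862 in each library. Microglia markers were at 0 but for 0.175 FPKM in 1 library, and the endothelial and mural cell markers summed to at most 0.621.

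Taken as a share of each library, the 42 genes made up 0.445% and 0.446% of the summed FPKM at Day 0, 0.331% and 0.292% at Day 1, 0.251% and 0.233% at Day 2, then 0.238% and 0.210% at Day 3. Their summed FPKM was 1789 and 1814 at Day 0, 1267 and 1106 at Day 1, 918 and 870.5 at Day 2, then 874 and 755 at Day 3. Both libraries of Day 1 lay below both of Day 0, and those of Day 2 below both of Day 1, while Day 2 and Day 3 overlapped. Without *Npm1*, by far the most abundant member at a mean of 245 FPKM over the libraries, the sums were 1316 and 1338 on Day 0 and 742 and 647 on Day 3.

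The days were compared on log2(FPKM + 1) with limma, with p-values adjusted by the method of Benjamini and Hochberg over the 12208 genes and called under 0.05. On this scale the change of a gene with a low FPKM is understated, and the p-values set a change against the spread between these libraries. That spread was estimated over all 4 days and drawn toward that of other genes. From Day 0 to Day 3, 27 of the 42 members were lower, where 26.3% of all genes tested were lower. At the same time 0 members were higher (limma, 0 also at an unadjusted p under 0.05), where 12.0% of all genes were higher. The median change of the members was -0.85, beside a median of -0.31 over all genes, which leaves -0.53 relative to that shift. In 38 of the 42 members both Day 3 libraries were below both Day 0 libraries, as was so for 48.6% of all genes. In 0 of the 42 were both above (limma made 0 calls in this direction as well), as was so for 22.8% of all genes.

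The number of calls depended on the scaling of the libraries. With median ratio scaling, which removes most of the shift in the median, 2047 genes were lower (16.8%) and 2135 higher (17.5%) in place of 3207 and 1460, and of the members 19 were lower and 0 higher (limma, 1 higher at an unadjusted p under 0.05). The 8 members whose call was lost were *Ubtf*, *Nop10*, *Wdr43*, *Wdr75*, *Pes1*, *Rrp1*, *Ddx18* and *Noc3l*. Under every scaling, filter and model run, and with each library left out in turn, 14 of the 27 members were called lower. They were *Myc*, *Tcof1*, *Fbl*, *Nop56*, *Nop58*, *Dkc1*, *Gar1*, *Ncl*, *Npm1*, *Ddx21*, *Mybbp1a*, *Tsr1*, *Nob1* and *Wdr12*. Leaving out Day 0 replicate 1 lowered the count of 27 to 16, and leaving out Day 3 replicate 2 lowered it to 18. The share of all genes called lower went down in these fits as well, from 26.3% to 14.7% and 17.5%.

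**Figure D1:**
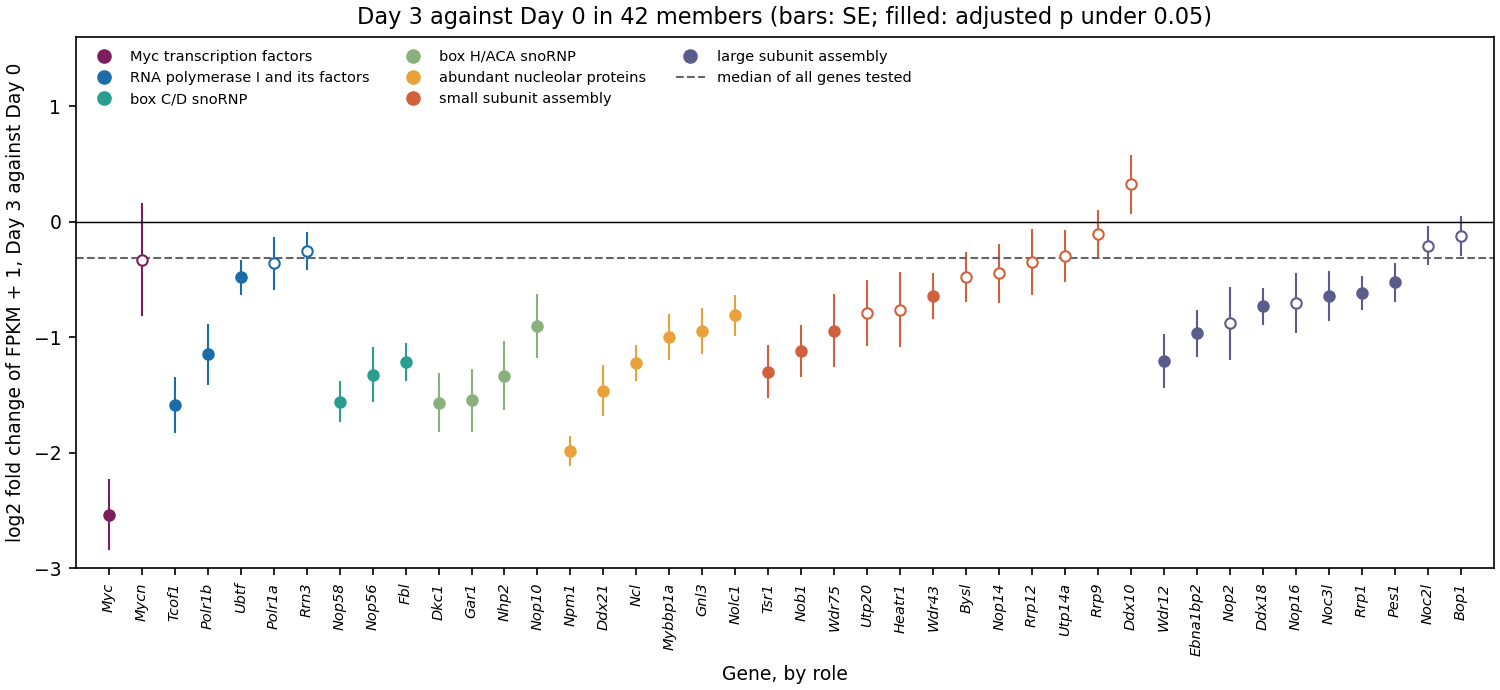
Log2 fold change of FPKM + 1 between Day 3 and Day 0 (vertical axis) of the 42 members, grouped by role, with bars for the SE and filled points for an adjusted p under 0.05 (limma). Of the 42 points 41 lie below 0, from *Myc* at -2.54 to *Ddx10* at 0.32, and the dashed line is the median of all genes tested at -0.31.

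*Myc* (chr15:61985391-61990374, GRCm38) was at 59.8 and 84.6 FPKM at Day 0, 61.9 and 42.4 at Day 1, 22.6 and 18.8 at Day 2, then 15.7 and 8.28 at Day 3. Day 0 and Day 1 overlapped, both Day 2 libraries were below all 4 earlier ones, and both Day 3 libraries were below both of Day 2. The day means fell from 72.2 ± 17.5 FPKM (SD, n = 2) on Day 0 to 12.0 ± 5.23 (SD, n = 2) on Day 3. This was a log2 fold change of -2.54 (SE 0.31, limma adjusted p = 5.39e-04), the largest fall among the 42 members also with median ratio scaling, where it was -2.23. By step, limma gave -0.47 for the first (adjusted p = 0.392), -1.27 for the middle (adjusted p = 0.0640) and -0.80 for the last (adjusted p = 0.294). In this fit none of the steps passed the threshold, while with the replicate number as a block the middle one did (adjusted p = 0.0358).

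*Mycn* (chr12:12936093-12941914), the paralog with the same DNA-binding preference, was at 1.00 and 0.628 FPKM at Day 0, 1.57 and 0.301 at Day 1, 0.316 and 0 at Day 2, then 1.06 and 0 at Day 3. Both Day 2 libraries were below both of Day 0, every other pair of days overlapped, and replicate 1 was above replicate 2 on each day. These levels correspond to 4, 2, 5, 1, 1, 0, 3 and 0 fragments in the 8 libraries in the same order, 16 in all, and with so few fragments its fold change is uncertain. From Day 0 to Day 3 its log2 fold change was -0.33 (SE 0.49, limma adjusted p = 0.619), and without Day 3 replicate 2 it was 0.19.

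The slope over the 4 days was tested by an exact permutation of the 8 libraries, two-sided, since 2 against 2 libraries cannot give a p below 0.333. For *Myc* it was -0.89 per day on the log2 scale (p = 0.00159 by exact permutation, adjusted p = 0.00238 over the 2 slopes and their difference), where the smallest p the 2520 arrangements can give is 7.94e-04. The *Mycn* slope was -0.17 per day (exact permutation, adjusted p = 0.321). The difference of the slopes was -0.72 per day (exact permutation, adjusted p = 0.00238), but with 0.1 added to the FPKM in place of 1 it was -0.30 (exact permutation, adjusted p = 0.474). Whether the paralogs differ in course thus depends on the scale at these low levels of *Mycn*.

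**Figure D2:**
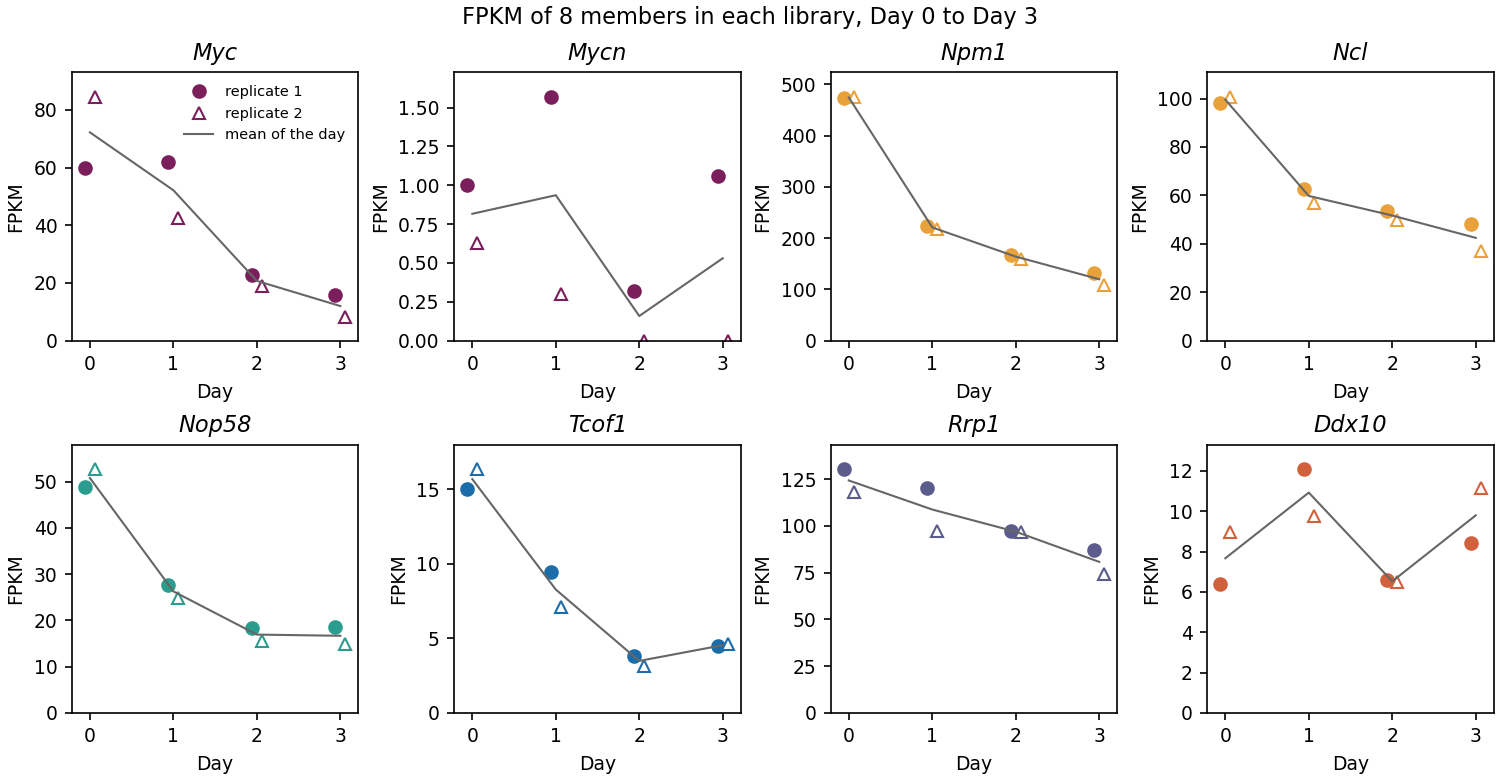
FPKM (vertical axes, from 0) of 8 members by day, with a filled circle for replicate 1, an open triangle for replicate 2 and a line through the means of the days. *Npm1* drops from 473 and 476 FPKM on Day 0 to 224 and 217 on Day 1, whereas *Myc* is at 61.9 and 42.4 on Day 1 and drops to 22.6 and 18.8 on Day 2.

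The other proteins that bind Max or its relative Mlx form the network around Myc, and 10 of 11 such genes passed the filter. Of these, 1 was lower and 3 were higher on Day 3 than on Day 0 (26.3% and 12.0% of all genes). The counts were 1 lower and 4 higher with median ratio scaling (16.8% and 17.5% of all genes), and 2 and 4 with the block (29.1% and 13.2%). *Mxd3*, which encodes a Max partner that represses transcription, was at 29.1 and 18.3 FPKM at Day 0, 0 and 0.602 at Day 1, 1.27 and 0 at Day 2, and was listed at 0 in both Day 3 libraries (limma adjusted p = 2.58e-04). It was thus high on Day 0 alone. *Mxd1*, a repressive Max partner as well, was at 7.83 and 10.1 FPKM on Day 0 and 16.7 and 20.2 on Day 3 (log2 fold change 0.96, SE 0.25, limma adjusted p = 0.0167).

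*Mxd4* was at 27.6 and 45.6 FPKM on Day 0 and 72.3 and 68.2 on Day 3, a log2 fold change of 0.96 (SE 0.24, limma adjusted p = 0.0149). *Mxi1* rose early, from 12.8 and 10.96 FPKM on Day 0 to 36.7 and 28.6 on Day 1, and was at 26.0 and 20.3 on Day 3 (log2 fold change 0.90 from Day 0, SE 0.20, limma adjusted p = 0.00788). In these 3 repressor genes, which were those called higher, both Day 3 libraries were above both Day 0 libraries (22.8% of all genes). *Myc* and *Mxd3* changed in the other direction. *Mycl1*, another Myc paralog, was at 4.10 and 4.90 FPKM at Day 0, 6.76 and 12.5 at Day 1, 13.9 and 19.98 at Day 2, then 10.8 and 7.76 at Day 3. Its Day 3 libraries were above those of Day 0 and below those of Day 2, but the change from Day 0 did not pass the threshold (log2 fold change 0.89, limma adjusted p = 0.0626) except with median ratio scaling (adjusted p = 0.0296) or the block (adjusted p = 0.0455). *Max* itself, the common partner, was at 41.7 and 38.2 FPKM on Day 0 and 31.2 and 25.8 on Day 3 (limma adjusted p = 0.0810, 0.0415 with the block). *Mnt*, *Mlx*, *Mlxip* and *Mga* did not pass the threshold, and *Mlxipl* was at 0 in 7 of the 8 libraries.

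RNA polymerase I copies the ribosomal RNA genes, and 3 of the 5 members of this role were lower on Day 3 (26.3% of all genes), with a median change of -0.48 beside -0.31 for all genes. Of the 5, 2 were lower with median ratio scaling (16.8% of all genes). *Tcof1*, the gene of the nucleolar protein treacle that binds the ribosomal RNA genes (chr18:60813755-60848971), was at 15.0 and 16.4 FPKM at Day 0, 9.46 and 7.09 at Day 1, 3.81 and 3.16 at Day 2, then 4.46 and 4.62 at Day 3. Each day up to Day 2 lay below the day before without overlap, and Day 3 was slightly above Day 2. From Day 0 to Day 3 it fell by 1.59 on the log2 scale (SE 0.24, limma adjusted p = 0.00163). *Polr1b*, the second largest subunit of the enzyme, also fell (-1.15, adjusted p = 0.00977), and without Day 0 replicate 1 the change was -1.04 but was not called (adjusted p = 0.0752).

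*Rrn3* (chr16:13780708-13814839) encodes the factor that brings the polymerase to its promoter and had the highest mean of the role. It was at 32.4 and 33.7 FPKM at Day 0, 31.7 and 28.5 at Day 1, 28.5 and 25.3 at Day 2, then 24.7 and 30.8 at Day 3. The Day 3 libraries were below those of Day 0 by little and enclosed those of Day 2, and the change of -0.25 (SE 0.16, limma adjusted p = 0.253) turned to 0.05 with median ratio scaling. The largest subunit gene *Polr1a* had a change of -0.36 (adjusted p = 0.244). *Ubtf*, which keeps the ribosomal RNA genes open, had a change of -0.48 (limma adjusted p = 0.0390). This did not pass in 11 of the 17 other fits (scalings, filters, models and libraries left out). Among them were median ratio scaling (limma adjusted p = 0.395), equal sums (adjusted p = 0.136) and quantile normalization (adjusted p = 0.122). The others were only the days compared, eBayes without trend, and the fits without any 1 library of Day 0, Day 2 or Day 3.

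The box C/D ribonucleoproteins add methyl groups to ribosomal RNA, and all 3 members were lower on Day 3 (26.3% of all genes), also with median ratio scaling (3 of 3). The methyltransferase gene *Fbl* (chr7:28169710-28179269), the most abundant of the role, was at 89.4 and 91.4 FPKM at Day 0, 68.2 and 49.9 at Day 1, 39.7 and 40.8 at Day 2, then 36.4 and 40.5 at Day 3. Day 0, Day 1 and Day 2 did not overlap, and Day 3 overlapped with Day 2. It fell by 0.62 on the log2 scale to Day 1 (limma adjusted p = 0.0448, not called with median ratio scaling at 0.0757) and by 1.21 to Day 3 (SE 0.17, adjusted p = 9.19e-04).

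*Nop58*, the gene of a core protein of these particles (chr1:59684971-59719044), was at 48.8 and 52.8 FPKM at Day 0, 27.6 and 24.9 at Day 1, 18.3 and 15.6 at Day 2, then 18.6 and 14.8 at Day 3. The largest step was thus the first, and Day 3 enclosed Day 2. The log2 fold change was -0.93 to Day 1 (limma adjusted p = 0.0108) and -1.56 to Day 3 (SE 0.17, adjusted p = 3.62e-04). *Nop56*, its partner in the particle, fell by 1.32 to Day 3 (limma adjusted p = 0.00349).

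The box H/ACA ribonucleoproteins turn uridines of ribosomal RNA into pseudouridines, and all 4 members were lower on Day 3 (26.3% of all genes), or 3 of 4 with median ratio scaling (16.8% of all genes). *Dkc1*, which encodes the pseudouridine synthase (chrX:75095854-75109777), was at 17.4 and 15.4 FPKM at Day 0, 9.02 and 12.3 at Day 1, 4.39 and 6.43 at Day 2, then 4.91 and 4.84 at Day 3. The first 3 days did not overlap, and the Day 3 libraries lay between those of Day 2. From Day 0 to Day 3 it fell by 1.57 on the log2 scale (SE 0.26, limma adjusted p = 0.00222).

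*Gar1* (chr3:129824912-129831396), chosen here after its values were seen, encodes a partner of the synthase. It was at 13.8 and 22.4 FPKM at Day 0, 5.77 and 5.54 at Day 1, 10.3 and 8.27 at Day 2, then 5.05 and 5.75 at Day 3. It was as low on Day 1 as on Day 3 and higher between, and in the lowest library it rests on about 6.9 fragments. It fell by 1.49 to Day 1 (SE 0.27, limma adjusted p = 0.00951) and by 1.55 to Day 3 (adjusted p = 0.00303), whereas the change of 0.62 from Day 1 to Day 2 did not pass (adjusted p = 0.230).

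*Nop10* (chr2:112261926-112263269), a small scaffold protein and the most abundant of the role, was at 61.9 and 37.5 FPKM at Day 0, 35.2 and 27.0 at Day 1, 22.4 and 33.5 at Day 2, then 25.1 and 25.5 at Day 3. The Day 0 libraries differed from each other more than the lower one did from the later days. Its fall of -0.90 (limma adjusted p = 0.0313) was not called without Day 0 replicate 1 (-0.55), Day 3 replicate 1 or Day 3 replicate 2. Nor was it called with median ratio scaling (limma adjusted p = 0.139), equal sums (adjusted p = 0.0615) or quantile normalization (adjusted p = 0.0595). The call was also lost with no filter (limma adjusted p = 0.0502) and with eBayes without trend (adjusted p = 0.0598). *Nhp2* fell by 1.33 (limma adjusted p = 0.00891). Its change was not called without Day 0 replicate 1 (-1.22, adjusted p = 0.0691) or Day 3 replicate 2 (-0.95, adjusted p = 0.0535).

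The abundant proteins of the nucleolus chaperone ribosomal RNA and particles, and all 6 members were lower on Day 3 (26.3% of all genes), also with median ratio scaling (6 of 6, beside 16.8%). *Npm1*, the gene of nucleophosmin (chr11:33152287-33163206), was at 473 and 476 FPKM at Day 0, 224 and 217 at Day 1, 168 and 160 at Day 2, then 131 and 108 at Day 3. No day overlapped with another, and the libraries of a day lay close together. The means went from 474 ± 2.35 FPKM (SD, n = 2) on Day 0 to 221 ± 4.97 (SD, n = 2) on Day 1 and 120 ± 16.4 (SD, n = 2) on Day 3. The log2 fold change was -1.10 to Day 1 (SE 0.13, limma adjusted p = 0.00152) and -1.98 to Day 3 (SE 0.13, adjusted p = 6.30e-05), and -1.67 when set against the median of all genes. Of the *Npm1* transcript sequence, 29.4% of the stretches of 31 bases also occur in other genes, among them 17 pseudogenes, and how their fragments were assigned is not stated.

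*Ncl*, the gene of nucleolin (chr1:86344719-86359400), is given in full although its values were seen first. It was at 98.3 and 101 FPKM at Day 0, 62.5 and 57.0 at Day 1, 53.5 and 49.8 at Day 2, then 48.0 and 36.9 at Day 3. As with *Npm1*, each day lay below the one before without overlap and the first step was the largest. It fell by 0.73 on the log2 scale to Day 1 (limma adjusted p = 0.0179) and by 1.22 to Day 3 (SE 0.15, adjusted p = 6.05e-04). The remaining 4 genes fell by 0.81 to 1.46, with adjusted p from 0.00135 for the RNA helicase gene *Ddx21* to 0.00834 for *Nolc1*, a chaperone of small nucleolar particles (limma). *Nolc1* was not called without Day 0 replicate 1 (adjusted p = 0.0677) or Day 3 replicate 2 (adjusted p = 0.0512), nor *Gnl3*, which encodes nucleostemin, without Day 0 replicate 2 (adjusted p = 0.0644).

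**Figure D3:**
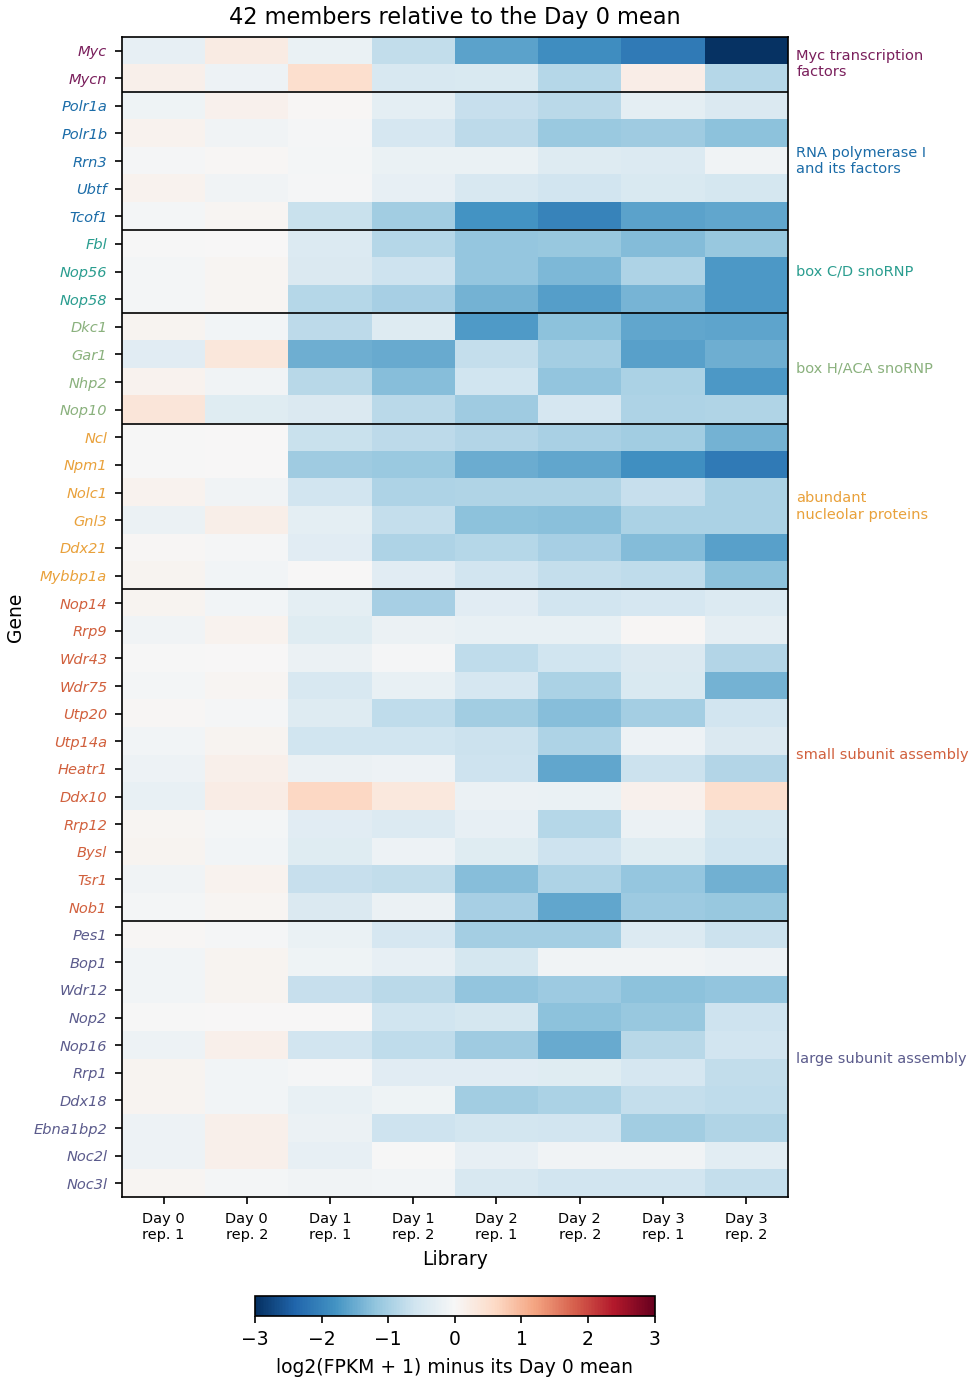
Each of the 42 members in each of the 8 libraries as log2(FPKM + 1) minus its own Day 0 mean (blue below, red above), grouped by role. The genes of the ribonucleoproteins and the abundant nucleolar proteins are mostly blue from Day 1, with 62.6% of the Day 0 level left on Day 1 at the median of the 6 nucleolar genes, and *Ddx10* is red on Day 1 at 142% of its Day 0 mean.

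In small subunit assembly a minority of the members passed the threshold, with 4 of 12 lower on Day 3 (33.3%, beside 26.3% of all genes), a median change of -0.56 and 11 of 12 negative. With median ratio scaling 2 of 12 were lower (16.7%), about the share of all genes (16.8%). *Wdr43* (chr17:71615895-71659031), a protein of the early particle that forms on the transcript and the most abundant of the role, was at 24.6 and 24.6 FPKM at Day 0, 21.5 and 24.0 at Day 1, 14.04 and 15.9 at Day 2, then 18.1 and 13.01 at Day 3. The first 2 days lay above the last 2, with no overlap between them. It fell by 0.65 (SE 0.20, limma adjusted p = 0.0319), but was not called with median ratio scaling (adjusted p = 0.209) or without Day 0 replicate 1 (adjusted p = 0.122), Day 0 replicate 2 (adjusted p = 0.123) or Day 3 replicate 2 (adjusted p = 0.161).

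*Tsr1* (chr11:74898071-74909342), a factor of the late small subunit particle, was at 17.3 and 20.4 FPKM at Day 0, 11.1 and 10.8 at Day 1, 7.13 and 9.42 at Day 2, then 7.91 and 6.26 at Day 3. It was highest on Day 0 and lower on each of the next 2 days without overlap. Its fall to Day 3 was the largest of the role (-1.30, SE 0.23, limma adjusted p = 0.00292). *Nob1*, the nuclease that makes the final cut of the small subunit RNA, fell by 1.12 (adjusted p = 0.00578), and *Wdr75* had a change of -0.95 (adjusted p = 0.0460), which was not called with median ratio scaling (adjusted p = 0.135) or without any 1 library other than Day 3 replicate 1, with adjusted p from 0.0545 to 0.237.

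*Ddx10* (chr9:53098635-53248053), an RNA helicase gene, was at 6.39 and 8.95 FPKM at Day 0, 12.1 and 9.75 at Day 1, 6.58 and 6.47 at Day 2, then 8.44 and 11.2 at Day 3. Its Day 1 libraries were above those of Day 0 and Day 2, and Day 0 and Day 3 overlapped. It was the only member with a positive change to Day 3 before rescaling, and this change did not pass the threshold (0.32, SE 0.26, limma adjusted p = 0.352). With median ratio scaling the change was 0.60 and did not pass either (limma adjusted p = 0.106). The other 7 members without a call, *Nop14*, *Rrp9*, *Utp20*, *Utp14a*, *Heatr1*, *Rrp12* and *Bysl*, had changes between -0.79 (*Utp20*, limma adjusted p = 0.0584) and -0.11 (*Rrp9*). Of these, *Heatr1* gained a call in 2 of 17 other fits and *Utp20* in 1 of 16. The sign of *Rrp9* turned with each of the 3 rescalings (up to 0.19), and those of *Utp14a* (0.01) and *Rrp12* (0.07) turned with quantile normalization.

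Large subunit assembly had 6 of 10 members lower on Day 3 (26.3% of all genes), a median change of -0.68 and 10 of 10 negative. With median ratio scaling 2 of 10 were lower, near the 16.8% of all genes, and 8 of 10 were negative. *Rrp1* (chr10:78400384-78413043), a nucleolar protein of early large subunit particles and the most abundant of the role, was at 131 and 118 FPKM at Day 0, 120 and 97.4 at Day 1, 97.3 and 96.5 at Day 2, then 87.2 and 74.3 at Day 3. The decline was gradual, and Day 0 and Day 1 overlapped. It fell by 0.62 to Day 3 (SE 0.15, limma adjusted p = 0.0124). The change was negative but not called with median ratio scaling (-0.30, adjusted p = 0.125), without Day 0 replicate 1 (-0.55, adjusted p = 0.0869) or without Day 3 replicate 2 (-0.50, adjusted p = 0.0700).

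The products of *Pes1*, *Bop1* and *Wdr12* form a single complex that large subunit RNA processing needs. *Wdr12* (chr1:60069785-60098645) was at 11.1 and 12.7 FPKM at Day 0, 6.96 and 6.34 at Day 1, 4.63 and 5.05 at Day 2, then 4.52 and 4.63 at Day 3. It was at its low level from Day 2 on and fell by 1.21 to Day 3 (SE 0.23, limma adjusted p = 0.00435), the largest fall of the role. *Pes1*, from 35.8 and 33.9 FPKM on Day 0 over 16.6 and 16.8 on Day 2 to 26.1 and 21.9 on Day 3, had a change of -0.52 to Day 3 (limma adjusted p = 0.0400). This call was lost with median ratio scaling (adjusted p = 0.331) and without any 1 library of Day 0 or Day 2 or without Day 3 replicate 2, with adjusted p from 0.0553 to 0.176. *Bop1*, at 31.1 and 34.9 FPKM on Day 0 and 30.7 and 29.5 on Day 3, had a change of -0.12 (limma adjusted p = 0.602), which turned positive with each of the 3 rescalings (up to 0.18). The 3 genes of the complex thus had different values, and a difference between them was not tested.

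*Ddx18* (chr1:121553835-121567989), chosen after its values were seen, encodes an RNA helicase. It was at 29.0 and 25.7 FPKM at Day 0, 23.2 and 25.03 at Day 1, 12.8 and 13.7 at Day 2, then 16.3 and 15.8 at Day 3. It was high on the first 2 days and low on the last 2, with a change of -0.82 from Day 1 to Day 2 (SE 0.16, limma adjusted p = 0.0346) and of -0.73 from Day 0 to Day 3 (adjusted p = 0.00838). With median ratio scaling neither was called (adjusted p = 0.0812 and 0.0782), and the latter was not called without Day 0 replicate 1 (adjusted p = 0.0663). The fits in which the former was lost are given with the counts for that step below. Of its transcript sequence, 65.5% of the stretches of 31 bases also occur in other genes, all 6 of them pseudogenes. This share was 32.4% for *Pes1*, 21.8% for *Fbl*, 18.8% for *Nop56* and 12.2% for *Wdr12*, so the same limit applies to them.

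*Ebna1bp2* fell by 0.97 (limma adjusted p = 0.00710), and without Day 0 replicate 2 the change was -0.81 but was not called (adjusted p = 0.0639). *Noc3l* had a change of -0.65 (adjusted p = 0.0443), which was not called with median ratio scaling (adjusted p = 0.212) or without any 1 of the 8 libraries, with adjusted p from 0.0571 to 0.186. The methyltransferase gene *Nop2* (-0.88, limma adjusted p = 0.0561, 0.0462 with the block), *Nop16* (-0.70, adjusted p = 0.0637) and *Noc2l* (-0.21, adjusted p = 0.365, and 0.10 with median ratio scaling) did not pass. *Nop2* gained a call in 5 of 17 other fits, the block among them.

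The steps between successive days share libraries and are given side by side. From Day 0 to Day 1, 6 members were lower, where 7.56% of all genes tested were lower, and 0 were higher (limma, 0 at an unadjusted p under 0.05), where 5.04% were higher. They were *Fbl*, *Nop58*, *Gar1*, *Npm1*, *Ncl* and *Nolc1*, which belong to the ribonucleoproteins or the abundant nucleolar proteins. The median change of the 42 was -0.39 beside -0.07 for all genes. With the replicate number as a block the count was 8, with *Nhp2* (adjusted p = 0.00487) and *Ddx21* (adjusted p = 0.0470) added, where 9.01% of all genes were lower. It was 5 with median ratio scaling (6.32% of all genes), where *Fbl* was not called. The count was 2 without Day 0 replicate 1, 1 without Day 0 replicate 2 and 1 without Day 1 replicate 2, where the share of all genes was 2.94%, 3.01% and 3.59%. At an unadjusted p under 0.05, 17 members and 16.1% of all genes were lower. Both Day 1 libraries were below both Day 0 libraries in 31 of the 42 members and in 33.4% of all genes.

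From Day 1 to Day 2, 1 member, *Ddx18*, was lower, where 1.73% of all genes were lower, and 0 were higher (limma, 0 at an unadjusted p under 0.05), where 2.16% were higher. The unadjusted p was under 0.05 for 19 members and 15.2% of all genes in this direction, and the median change was -0.43 beside -0.19 for all genes. With the replicate number as a block, 5 members were called lower, namely *Myc*, *Tcof1*, *Nob1*, *Pes1* and *Ddx18*, where the share of all genes also went up, to 3.57%. The count was 0 with median ratio scaling, quantile normalization, only the days compared or eBayes without trend, where at most 1.07% of all genes were lower. It was also 0 when any 1 of 5 of the libraries was left out (Day 0 replicate 1, Day 0 replicate 2, Day 1 replicate 1, Day 1 replicate 2 or Day 2 replicate 2), and it was 3 without Day 3 replicate 1 and 3 without Day 3 replicate 2. Among the fits without 1 library, the share of all genes called lower also went down where the count was 0. Without either Day 3 library it changed little. From Day 2 to Day 3, 0 members were lower and 0 higher (limma, 4 lower and 1 higher at an unadjusted p under 0.05), where 0.0491% and 0.246% of all genes were called, and 7.57% and 6.95% at the unadjusted threshold. The median change in this step was 0.01 beside -0.02 for all genes.

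The course of the roles differed in these medians, without a test of the difference. The median member was at 74.6% of its Day 0 mean FPKM on Day 1, 52.0% on Day 2 and 53.1% on Day 3, and the median of the 11475 tested genes at 1 FPKM or more on Day 0 was at 93.2%, 78.6% and 76.0%. On Day 1 the median was 55.0% for the box H/ACA genes, 65.3% for the box C/D genes and 62.6% for the abundant nucleolar proteins. It was 79.1% for small subunit assembly, 84.7% for large subunit assembly and 90.4% for RNA polymerase I and its factors. On Day 3 these medians were 34.8%, 40.5%, 46.2%, 66.5%, 59.5% and 70.5% in the same order. *Myc* was at 72.2% of its Day 0 mean on Day 1, 28.7% on Day 2 and 16.6% on Day 3, and *Npm1* at 46.5%, 34.6% and 25.2%. By Day 1, 9 members were under 60% of their Day 0 mean and 8 were at 90% or more.

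**Figure D4:**
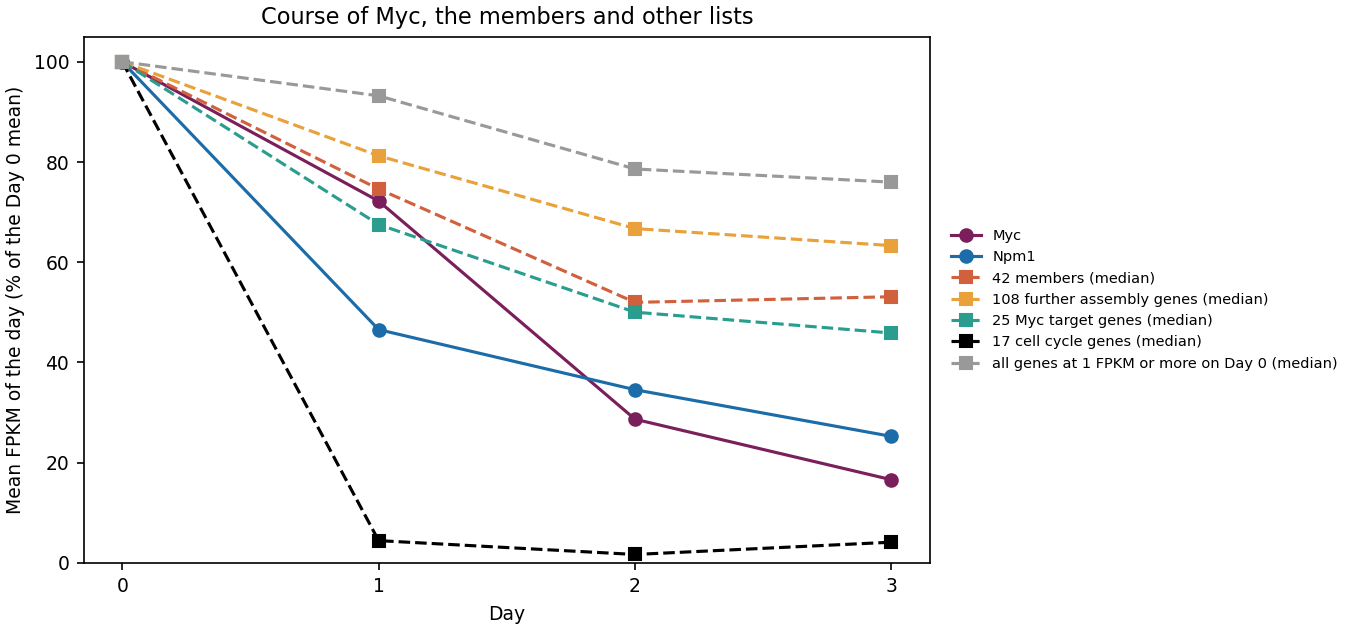
Mean FPKM of each day as a percentage of the Day 0 mean (vertical axis) for *Myc* and *Npm1* and, as medians, for the members and other lists. On Day 1 the cell cycle genes are at 4.43%, *Npm1* at 46.5% and *Myc* at 72.2%, and on Day 3 the members are at 53.1% and all genes at 76.0%.

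Cell cycle genes were lower already on Day 1, when their median was at 4.43% of the Day 0 mean, beside 74.6% for the members. On Day 3 these medians were 4.12% and 53.1%. All 17 genes of that list were called lower on Day 1 than on Day 0 (7.56% of all genes), with a median change of -4.37 beside -0.07 for all genes. From Day 0 to Day 3, 17 of 17 were lower (26.3% of all genes). Their summed FPKM was 1902 and 1552 at Day 0, 152 and 71.9 at Day 1, 89.6 and 81.7 at Day 2, then 120 and 129 at Day 3. The most abundant on Day 0 was *Ube2c*, at 321 and 231 FPKM, and *Ccnb1*, a cyclin of mitosis, went from 143 and 120 on Day 0 to 6.34 and 1.35 on Day 1. Their part in the changes of the members was not tested.

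A wider list of 108 genes of ribosome assembly, all of which passed the filter, was compared in the same way. From Day 0 to Day 3, 46 were lower (42.6%, beside 26.3% of all genes) and 1 higher (12.0% of all genes), with a median change of -0.59. The counts of lower genes were 4 of 11 for RNA polymerase I, 19 of 44 for the small subunit and 23 of 53 for the large subunit. With median ratio scaling 17 were lower (15.7%), which was no more than the 16.8% of all genes, and the parts had 3 of 11, 5 of 44 and 9 of 53. There were 17 without Day 0 replicate 1, 18 without Day 0 replicate 2 and 25 without Day 3 replicate 2, where 14.7%, 14.8% and 17.5% of all genes were lower. More of this list than of all genes was thus called lower with all 8 libraries before rescaling, but not with median ratio scaling, and little more without either Day 0 library. Relative to the median over all genes the list's median was -0.27 before rescaling and -0.26 with it, and with it 31.5% of the list and 22.4% of all genes were lower at an unadjusted p under 0.05. The largest falls of the list were those of *Rrp15*, needed for the large subunit (22.1 and 22.9 FPKM on Day 0, 4.54 and 5.17 on Day 3, limma adjusted p = 6.01e-04), *Taf1d*, a subunit of the promoter factor of RNA polymerase I (-1.67, adjusted p = 0.00190), and *Riok1*, a kinase of the late small subunit particle (-1.64, adjusted p = 0.00883).

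The gene that rose was *Sbds*, which acts late, in the cytoplasm, to release a factor from the large subunit so that it can join the small one. It was at 33.1 and 27.0 FPKM at Day 0, 55.1 and 49.7 at Day 1, 83.3 and 77.7 at Day 2, then 85.5 and 87.5 at Day 3. Every day lay above the one before without overlap, and the log2 fold change to Day 3 was 1.50 (SE 0.14, limma adjusted p = 1.89e-04).

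**Figure D5:**
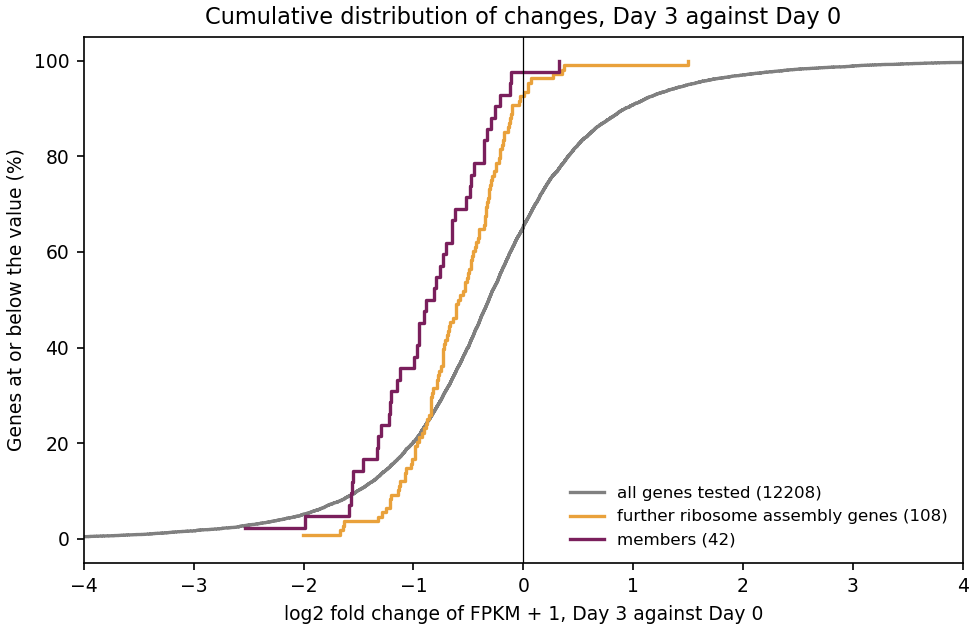
Percentage of genes (vertical axis) at or below each log2 fold change of FPKM + 1 between Day 3 and Day 0 (horizontal axis), for the 42 members, the 108 further ribosome assembly genes and the 12208 genes tested. The medians are -0.85, -0.59 and -0.31, in this order.

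Genes outside ribosome assembly that are known as Myc targets, such as those of nucleotide and polyamine synthesis and of protein folding, were lower in 22 of 25 cases from Day 0 to Day 3 (26.3% of all genes) and in 16 of 25 with median ratio scaling (16.8% of all genes), with a median change of -1.12. In this list *Cad*, which starts pyrimidine synthesis, was at 18.6 and 21.3 FPKM on Day 0 and 4.77 and 4.26 on Day 3 (-1.93, limma adjusted p = 4.15e-04). The 3 without a call, named after their values were seen, were *Srm*, *Ccnd2* and *Tfrc*. The genes of the cytosolic ribosomal proteins, a list added after the others and given as a description, were lower in 76 of 78 cases, with a median of -1.44 (75 with median ratio scaling).

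Several of the 42 genes also carry small nucleolar RNAs, the guides of ribosomal RNA modification, within their bounds. Annotated snoRNA genes lie on the same strand within 7 members (16.7%), namely *Nop56*, *Nop58*, *Dkc1*, *Ncl*, *Gnl3*, *Wdr43* and *Tsr1*, with 21 snoRNA genes in all. Among tested genes with a single annotated gene this was so for 214 of 11303 (1.89%). All 7 hosts were lower on Day 3, with a median change of -1.30, beside 20 of the other 35 members, with a median of -0.76, and 26.3% of all genes. These counts were 6 of 7 (without *Wdr43*) and 13 of 35 with median ratio scaling, beside 16.8% of all genes, and the difference was not tested. The snoRNAs themselves were not measured by these libraries. The members lie on 20 chromosomes. In 17 members exons overlap a gene on the other strand. The libraries kept the strand of the mRNA, but whether the fragments were counted by strand is not stated.

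The sequence CACGTG, to which Myc and Max bind, was looked for in promoter windows of RefSeq (GRCm38.p6) from 250 bases before to 50 after a start. It reads the same on both strands. Windows were available for 36 of the 41 members looked up (not for *Myc*, *Fbl*, *Npm1*, *Rrp12* and *Bop1*), and *Tcof1* was not looked up. The windows of 7 of the 36 (19.4%) hold it, beside 17 of 90 further assembly genes (18.9%), 1078 of 8963 tested genes (12.0%) and 7.15% of all 32851 windows. Of the 7 members with a match 4 were lower on Day 3 (*Mybbp1a*, *Wdr43*, *Tsr1* and *Pes1*) and 3 were not called (*Rrn3*, *Utp20* and *Nop2*), and of the 29 with a window but no match 19 were lower, where 26.3% of all genes were. These counts were 2 of 7 (*Mybbp1a* and *Tsr1*) and 13 of 29 with median ratio scaling, beside 16.8% of all genes. The medians before rescaling were -0.79 and -0.81. A match describes the letters of the window and says nothing of binding. The matches are shown 5′ to 3′ on the strand of the gene, with the searched letters in capitals, so that the bases around them can be compared. Those of *Rrn3*, at chr16:13780464-13780509 and chr16:13780631-13780676, begin 215 and 48 bases before the start, and that of *Nop2*, at chr6:125131803-125131848, 60 bases before it. The others begin between base 3 and base 41 after the start, where *Tsr1* is at chr11:74898092-74898121 and *Pes1* at chr11:3963965-3963994.
Rrn3 distal: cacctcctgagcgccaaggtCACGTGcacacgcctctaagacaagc
Rrn3 proximal: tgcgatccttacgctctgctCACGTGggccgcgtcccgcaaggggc
Nop2: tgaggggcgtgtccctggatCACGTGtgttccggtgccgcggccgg
Tsr1: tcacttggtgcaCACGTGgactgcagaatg
Pes1: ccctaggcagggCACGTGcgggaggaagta
Wdr43: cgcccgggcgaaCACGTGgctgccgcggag
Mybbp1a: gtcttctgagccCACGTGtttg
Utp20: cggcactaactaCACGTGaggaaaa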

How the data were processed

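The mRNA of OPC cultures was sequenced on 4 days, with 2 libraries a day. The table holds FPKM as deposited by the authors, made with OmicSoft ArrayStudio (mm10 per the labels), with no further normalization stated, and 0 value columns were left unmapped. Genes at 1 FPKM or more in 2 libraries or more (12208 of 23427) were tested on log2(FPKM + 1) with limma 3.58.1 in R 4.3.3 (lmFit, eBayes with trend, the day as a factor), with Benjamini-Hochberg adjustment over these genes. The authors name DESeq2, which needs counts. Slopes were tested by exact permutation. The model was tested on simulated data. Members and lists were chosen with earlier results of these data known. Full values were given for *Myc*, *Mycn* and, in each role, the most abundant member and those with the largest changes, and for *Gar1*, *Ncl* and *Ddx18*, chosen after their values were seen. Of further lists, up to 3 falls and 3 rises were named, and of network and marker lists any gene. The replicate block uses the replicate numbers of the labels, and replicate differences correlated across genes at r from 0.16 to 0.29 over 6 pairs of days. Alternatives were a pseudocount of 0.1, no filter, a filter of 10 FPKM in 1 library, rescaling to equal sums, median ratio scaling, quantile normalization, the block, only the days compared, eBayes without trend, and each library left out. Positions are from GENCODE M21. Other steps used Python 3.11.15, numpy 2.4.6 and matplotlib 3.10.9.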

Additional observations from a re-analysis of the deposited data

How the results depend on the processing

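The count of 27 members lower on Day 3 than on Day 0 was 19 to 28 under the other scalings, filters and models (28 with the replicate block, which pairs libraries by the replicate numbers of the labels) and 16 to 25 with 1 library left out. The count of 6 for Day 1 was 8 with the replicate block, 5 with median ratio scaling and 1 to 8 with 1 library left out. The count of 1 for Day 2 against Day 1 was 3 with the filter of 10 FPKM, 0 with median ratio scaling, 0 with quantile normalization, 5 with the replicate block, 0 with only the days compared, 0 with eBayes without trend, and 0 to 3 with 1 library left out. The count of 46 further assembly genes was 30 with libraries rescaled to the same sum, 17 with median ratio scaling, 21 with quantile normalization, and 17 to 44 with 1 library left out. The shares of all genes called lower moved with the settings too. From Day 0 to Day 3 the share was 26.3% before rescaling and 16.8% with median ratio scaling. It was 18.0% with quantile normalization, 20.7% with equal sums and 32.7% with the filter of 10 FPKM. For Day 1 it was 7.56%, 9.01% with the block and 6.32% with median ratio scaling. For Day 2 against Day 1 it was 1.73%, 3.57% with the block and 0% with only the days compared. The difference between the *Myc* and *Mycn* slopes was -0.30 per day with a pseudocount of 0.1. Log2 fold changes from Day 0 to Day 3 turned in sign for *Rrn3* (0.0532), *Bop1* (0.183), *Noc2l* (0.102) and *Rrp9* (0.183) with median ratio scaling, for *Bop1* (0.0262) and *Rrp9* (0.0332) with equal sums, and for *Rrp9* (0.188), *Rrp12* (0.0659), *Bop1* (0.0176) and *Utp14a* (0.0105) with quantile normalization. With 1 library left out, that of *Mycn* ranged from -0.853 to 0.189 and that of *Rrp9* from -0.266 to 0.0444, positive without Day 3 replicate 2. None of these had been called. The cause was not tested. A day left with 1 library was assumed to vary like the others. Of the 27 calls 13 were lost when at least 1 library was left out. Over the 17 alternatives the call was lost in 14 for *Wdr75*, 13 for *Noc3l*, 10 for *Pes1* and 8 for *Wdr43*, of which only some are named above. With 950000 to 1520000 fragments a library, 10 members rest on under 20 fragments in some library.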
